A study of Rattus norvegicus with 8 samples.

Results

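The purine nucleotide cycle was followed through the 6 genes that encode its enzymes, Ampd1, Ampd2, Ampd3, Adss1, Adss2 and Adsl, in captures of both layers of rat extraocular muscle, orbital and global. The genes were chosen by name, as every probe set annotated to exactly 1 of them, at a time when the orbital against global values of these same captures were already known. The contrast between the layers is therefore a description for these genes and no independent test. All 6 genes were present, with 8 of the 15923 probe sets of the array. The samples were 4 laser-dissected captures of the orbital layer, the thin layer next to the bony orbit, and 4 captures of the global layer, which lies next to the eyeball. All came from adult rats, and the labels give no strain, treatment, age in weeks or number of animals, nor which captures share an animal. If captures of the same layer share an animal, p-values over captures are too small. If an animal gave captures of both layers, the test leaves out that pairing, and its p-values can also be too large.

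AMP deaminase, encoded by the Ampd genes, removes the amino group of AMP and yields IMP and ammonia. Adenylosuccinate synthetase, encoded by the Adss genes, joins IMP to aspartate at the cost of GTP, and adenylosuccinate lyase, encoded by Adsl, splits the product into AMP and fumarate. In skeletal muscle the cycle is known to be most active during intense contraction, when it removes AMP formed from ADP and supplies fumarate to the citric acid cycle. Ampd1 and Adss1 are the isoforms of skeletal muscle, Ampd2 and Adss2 are expressed in many tissues, Ampd3 is the isoform of red blood cells and other tissues, and Adsl encodes the lyase of the cycle, which also serves purine synthesis.

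RefSeq promoter windows of build GRCr8, each 300 bases from 250 before to 50 after an annotated start, were found for 5 of the 6 genes, and Ampd3 was not matched. Those of Ampd1 and Adss1 are shown because these 2 genes had the clearest layer differences, and that of Adss2 because it is the isoform counterpart of Adss1. Capitals mark matches to 4 motifs, each searched on both strands. One is the E-box, spelled CANNTG, which basic helix-loop-helix factors such as MyoD are known to bind. Another is the GC box, bound by Sp1 and spelled GGGCGG here. The others are the TATA box, searched as TATAAA, and the MEF2 motif, named for a muscle transcription factor. The MEF2 motif was searched as YTAWWWWTAR, where Y is C or T, W is A or T, and R is A or G.
Ampd1, chr2:193287082-193287381, plus strand: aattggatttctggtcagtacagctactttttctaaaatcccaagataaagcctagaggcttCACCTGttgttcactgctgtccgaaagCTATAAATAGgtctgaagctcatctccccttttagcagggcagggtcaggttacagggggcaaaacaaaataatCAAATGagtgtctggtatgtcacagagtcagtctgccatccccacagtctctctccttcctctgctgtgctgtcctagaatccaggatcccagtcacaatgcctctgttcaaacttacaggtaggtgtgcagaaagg
Adss1, upstream start, chr6:137500299-137500598, plus strand: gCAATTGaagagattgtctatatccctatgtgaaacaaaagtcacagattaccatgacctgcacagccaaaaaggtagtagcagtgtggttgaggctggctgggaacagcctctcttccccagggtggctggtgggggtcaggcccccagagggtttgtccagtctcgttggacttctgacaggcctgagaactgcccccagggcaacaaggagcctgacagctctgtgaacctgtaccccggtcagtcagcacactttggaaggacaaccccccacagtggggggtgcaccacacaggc
Adss1, downstream start, chr6:137500684-137500983, plus strand: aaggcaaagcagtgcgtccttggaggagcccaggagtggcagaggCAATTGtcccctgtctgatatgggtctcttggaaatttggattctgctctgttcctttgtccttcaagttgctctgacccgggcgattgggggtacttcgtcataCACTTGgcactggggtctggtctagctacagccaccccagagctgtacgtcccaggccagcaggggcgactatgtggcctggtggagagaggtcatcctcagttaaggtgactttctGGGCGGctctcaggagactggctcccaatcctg
Adss2, chr13:92331589-92331888, minus strand: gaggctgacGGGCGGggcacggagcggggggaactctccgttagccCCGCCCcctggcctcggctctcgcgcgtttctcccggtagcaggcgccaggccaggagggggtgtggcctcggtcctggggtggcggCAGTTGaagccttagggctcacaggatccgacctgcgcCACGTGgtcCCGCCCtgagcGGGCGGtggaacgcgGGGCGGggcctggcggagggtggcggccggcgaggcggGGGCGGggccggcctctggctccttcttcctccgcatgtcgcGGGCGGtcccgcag

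The Ampd1 window held 1 MEF2 match, at positions 90 to 99 counted from its first base, and TATAAA lay inside that match. The annotated start follows the first 250 bases of the window, and whether TATAAA acts as a TATA box at this distance was not tested. A MEF2 match was present in 3.29% and TATAAA in 14.2% of all 33469 windows in the table. The Ampd1 window also held 2 E-boxes, a motif found in 72.1% of all windows. The upstream and downstream Adss1 windows held 1 and 2 E-boxes and no MEF2 match. The Adss2 window had 7 GC boxes and a GC content of 76%, against 46.3% for Ampd1 and a median of 51.7% over all windows. At least 1 GC box was present in 33.1% of all windows. The downstream Adss1 window had 1 GC box, and the Ampd1 and upstream Adss1 windows had none of these letters. These matches are descriptions of sequence, and no measurement of binding was made.

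The arrays were alike in scale, with median intensities of 58.8 to 66.3 over the 8 captures, and their number limits the precision. The orbital captures correlated with each other, and the global captures with each other, at r of 0.938 to 0.961 across tested probe sets, and captures of different layers at 0.908 to 0.941, where probe sets are no independent replicates. The 3′ to 5′ ratio of Gapdh was 5.81 to 12.9 in orbital and 5.35 to 6.47 in global captures, with orbital captures 3 and 4 at the top. Orbital captures 3 and 4 also had nearly the same title. The SD of their log2 difference over tested probe sets was 0.458, against 0.425 to 0.449 for the other pairs of orbital captures. It was 0.466 to 0.540 for pairs of global captures. They were kept as separate samples, but this SD cannot show whether the 2 arrays came from separate dissected material. The 9 fibre genes Acta1, Ckm, Des, Ttn, Myh13, Myh2, Tnnt3, Tnni2 and Pygm were each above the Bacillus controls in at least 1 capture, with a summed intensity of 43946 to 67228 in orbital and 52951 to 80866 in global captures, and Ttn and Pygm alone of the 9 were called, both lower in the orbital layer. The highest of the Bacillus control probe sets, used as a mark of background, lay between 17.7 and 41.5 on the 8 arrays.

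The muscle isoform of AMP deaminase was far lower in the orbital layer. Ampd1 had intensities of 461, 390, 560 and 375 in orbital captures 1 to 4, against 1790, 1268, 1885 and 1579 in global captures 1 to 4. Every orbital capture lay below every global capture, with a wide gap between the groups. The means were 447 ± 84.6 in orbital and 1631 ± 273 in global captures (SD, n = 4 each), a log2 difference of -1.87 ± 0.16 (SE). That is a level 3.65 times as high in the global layer on the log2(intensity + 1) scale. Only 23 of the 9520 tested probe sets had a more negative difference. The difference was -1.83 within the captures whose code in the title begins with R2 and -1.91 within those with R3, and the labels do not say what these prefixes stand for. With orbital captures 1 and 2 alone it was -1.92.

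The muscle isoform of adenylosuccinate synthetase was also lower in the orbital layer, by a smaller amount. Adss1 had 2041, 2018, 2636 and 2412 in orbital captures 1 to 4, against 3876, 3794, 5826 and 4126 in global captures 1 to 4. The layers did not overlap, and global capture 3 was well above the other global captures. The means were 2277 ± 300.2 in orbital and 4406 ± 958 in global captures (SD, n = 4 each), a log2 difference of -0.94 ± 0.16 (SE), or a level 1.92 times as high in the global layer. The difference was -0.92 within R2 and -0.96 within R3. Without global capture 3 it was -0.80, and with orbital captures 1 and 2 alone -1.10. In bulk tissue of this kind, fewer cells of a type and less RNA per cell cannot be told apart.

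Adenylosuccinate lyase differed little and varied little. Adsl had 387, 362, 391.6 and 382 in orbital captures 1 to 4, against 420, 434, 422 and 481 in global captures 1 to 4. The orbital values all lay below the global ones although the log2 difference was only -0.20 ± 0.11 (SE). The means were 381 ± 13.2 in orbital and 439 ± 28.3 in global captures (SD, n = 4 each). Its coefficient of variation, the SD as a share of the mean, was 3.46% in orbital and 6.43% in global captures. Only 1.34% of tested probe sets varied less among the orbital captures and 6.25% among the global ones, where the median over tested probe sets was 16.1% among orbital and 17.2% among global captures. The other tested members varied within a layer by 11.4% to 21.7%.

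The isoforms that are not particular to muscle had smaller differences, and their layers overlapped. The brighter Ampd2 probe set had 148, 142, 211 and 142 in orbital captures 1 to 4, against 147, 135, 102 and 112 in global captures 1 to 4. The values interleaved, orbital capture 3 stood above the rest, and the log2 difference was 0.37 ± 0.18 (SE). It was 0.04 within R2 and 0.69 within R3. Ampd3 had 143, 117, 169 and 194 in orbital captures 1 to 4, against 147, 105, 146 and 158 in global captures 1 to 4. The layers overlapped again, with a log2 difference of 0.15 ± 0.19 (SE), and of -0.09 with orbital captures 1 and 2 alone. The brighter Adss2 probe set had 444, 527, 484 and 579 in orbital captures 1 to 4, against 650, 552, 602 and 496 in global captures 1 to 4. These also overlapped, with a log2 difference of -0.18 ± 0.13 (SE). These differences do not show that the levels were equal in the layers.

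The second probe sets of Ampd2 and Adss2 were too dim to be tested, with means under the 40th percentile of all probe sets (an intensity of 39.4). The dimmer Ampd2 probe set had 14.2, 21.6, 32.9 and 56.4 in orbital captures 1 to 4, against 32.2, 29.4, 21.1 and 38.6 in global captures 1 to 4. It was at or under the highest Bacillus control in 2 orbital and 2 global captures. Its log2 difference was -0.78 within R2 and 0.58 within R3, so the prefixes went opposite ways at this probe set. The dimmer Adss2 probe set had 15.2, 26.6, 26.8 and 19.9 in orbital captures 1 to 4, against 29.3, 23.4, 33.5 and 31.3 in global captures 1 to 4, and was at or under that control in 1 orbital and 1 global capture. Its log2 difference was -0.42, with layers that overlapped.

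**Figure D1:**
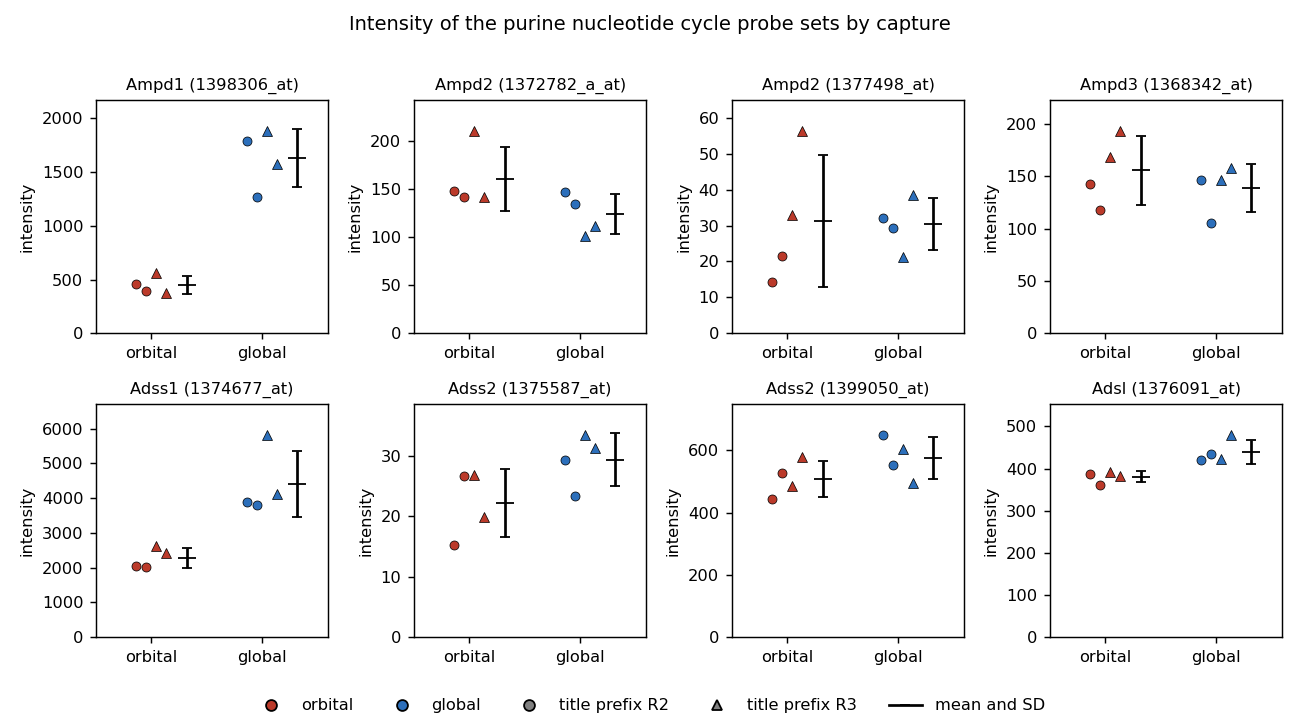
Intensity (y axis, linear, from 0) of each of the 8 member probe sets in orbital and global captures, with circles for title prefix R2, triangles for R3, and the mean and SD of 4 captures beside them. The orbital captures lie below all global captures for Ampd1 (375 to 560 against 1268 to 1885), Adss1 and, by a small margin, Adsl, and the layers overlap in the other 5 panels.

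Of the 8 member probe sets, 6 passed the filter on low values and were tested. In limma across all 9520 tested probe sets, with an adjusted p under 0.05, 2 of the 6 were called, Ampd1 and Adss1, and both were lower in the orbital layer. Over all tested probe sets 7.41% were called in either direction and 3.5% as lower in the orbital layer. The layers did not overlap for 3 of the 6 members (Ampd1, Adss1 and Adsl), and for 14.1% of all tested probe sets. As the genes were proposed with this contrast in view, nothing is read from these counts. The median log2 difference over the 6 genes, each by its brightest probe set, was -0.19, and over all tested genes it was 0.02.

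Within an array, the muscle isoforms changed relative to the other isoforms. The log2 ratio of Ampd1 to Ampd2 was 1.40 to 1.64 in the orbital captures and 3.23 to 4.20 in the global captures. The log2 ratio of Ampd1 to Ampd3 was 0.95 to 1.73 in orbital and 3.32 to 3.68 in global captures. For Adss1 to Adss2 it was 1.93 to 2.44 in orbital and 2.57 to 3.27 in global captures, with a mean 0.76 lower in the orbital captures. None of these 3 ratios overlapped between the layers. Ampd1 and Adss1 did not overlap on their own either and were chosen with this contrast in view. The ratios therefore largely restate their layer differences and are a description. The level of such a ratio depends on the probes, and only its change between captures can be read. The 2 muscle isoforms also differed from each other in size of change, as the log2 ratio of Ampd1 to Adss1 was -2.68 to -2.14 in orbital and -1.63 to -1.11 in global captures. It fell by 0.93 in the mean of the orbital captures relative to the global ones.

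**Figure D2:**
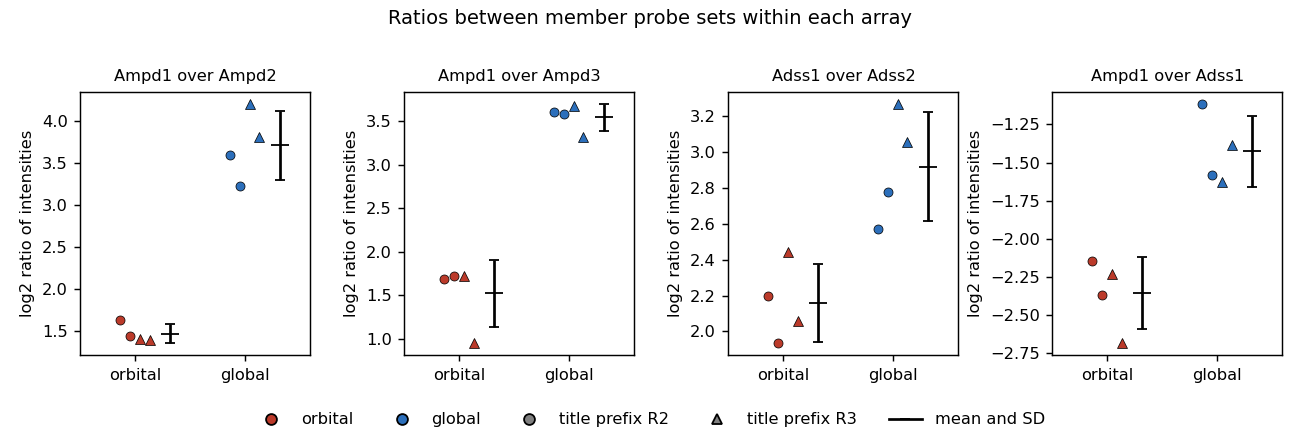
Log2 ratio of 2 member intensities on the same array (y axis, not starting at 0) in orbital and global captures, with circles for title prefix R2, triangles for R3, and the mean and SD of 4 captures. All 4 ratios are lower in every orbital capture than in any global capture, for example 1.40 to 1.64 against 3.23 to 4.20 for Ampd1 over Ampd2.

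Listed transcripts of fast glycolytic fibres, called fast fibre genes here, moved in the same direction as Ampd1 and Adss1. This did not hold for every myosin gene. Myh2 and Myh13, which were in the muscle fibre list only, differed by 0.25 and 0.24 without passing. Of 9 fast fibre genes tested, 5 were lower in the orbital layer by limma with an adjusted p under 0.05, 0 were higher and 4 did not pass. The median log2 difference was -1.12. Over all tested probe sets 3.5% were called as lower. The list was chosen with earlier results of these data known, so its counts and sums are a description and no independent test. The 5 were Mybpc2 (-3.54), Pvalb (-3.44), Myoz1 (-1.37), Actn3 (-3.75) and Atp2a1 (-0.82). The summed intensity of the 9 genes was 32980 to 48690 in orbital and 57464 to 98434 in global captures, with no overlap. Bright genes weighed most in this sum, such as Tnnc2 (-0.13), with a mean of 12334 in orbital captures. Actn3, Mybpc2 and Pvalb had orbital means of only 1363, 654 and 112. They fell further than Ampd1 (-1.87), and the other fast fibre genes differed less than Ampd1. Tnnt3 and Tnni2 were also in the muscle fibre list. As a share of the fast fibre sum, Ampd1 was 0.77% to 1.38% in orbital and 1.91% to 2.59% in global captures, which did not overlap. As a share of the same sum, Adss1 was 4.95% to 6.49% in orbital and 5.17% to 6.60% in global captures, which overlapped over nearly their whole range. The outcome for Adss1 depended on the sum used. As a share of the summed intensity of the 9 muscle fibre genes, Adss1 was 3.59% to 4.69% in orbital and 5.96% to 7.20% in global captures, and Ampd1 was 0.557% to 0.996% in orbital and 2.28% to 3.02% in global captures, with no overlap for either. The summed intensity of 5 smooth muscle markers was also lower, 294 to 455 in orbital and 634 to 833 in global captures, and only Myh11 of the 4 tested passed. Myh11 weighed most in this sum, with means of 168 in orbital and 424 in global captures. Tagln, Smtn and Acta2 differed by -0.73, -0.38 and -0.05. The sums of 4 erythrocyte markers (299 to 752 orbital, 304 to 1300.4 global) and 6 leukocyte markers (984 to 1452 orbital, 976 to 2150 global) overlapped between the layers. So did those of 6 fibroblast markers (4847 to 7506 orbital, 3554 to 6712 global), 6 endothelial markers (809 to 1157 orbital, 734 to 821 global), 4 Schwann cell and myelin markers (2504 to 4850 orbital, 1252 to 4565 global), 4 adipocyte markers (208 to 324 orbital, 218 to 459 global) and 4 photoreceptor markers (383 to 1610 orbital, 36.7 to 923 global). Of the markers in these overlapping lists, Eng (endothelial, 1.29) and Cnp (Schwann cell and myelin, 0.84) were called, both higher in the orbital layer, and only Lep was at or under the highest Bacillus control in all 8 captures. The endothelial sums overlapped only through orbital capture 1 (809), which lay below global captures 2 and 4 (821 and 815). All 6 tested endothelial markers had positive differences. Flt1 (0.58) and Vwf (0.41) did not overlap between the layers, though neither passed. The part of fibre makeup and of other cells in the layer differences of Ampd1 and Adss1 was not tested.

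**Figure D3:**
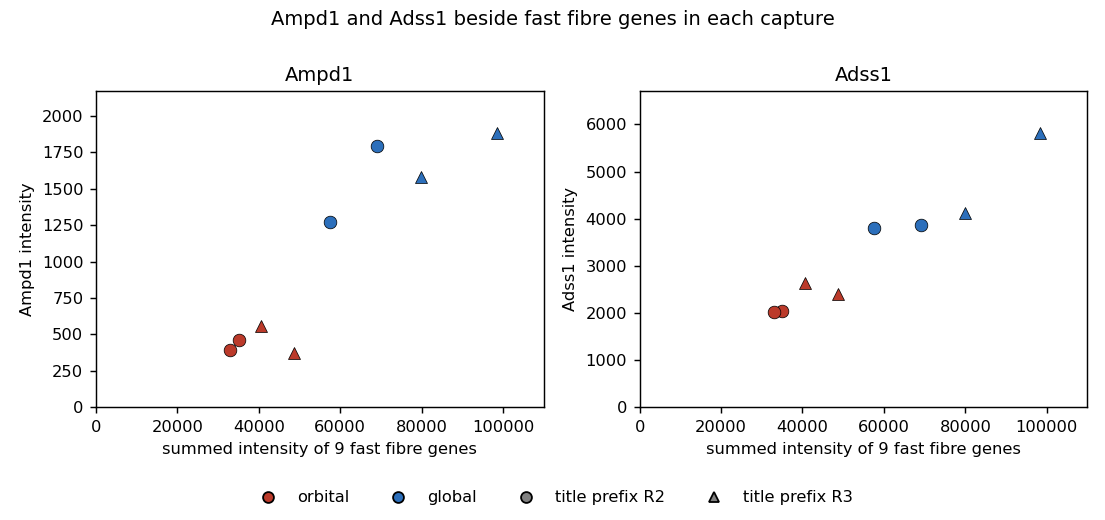
Intensity of Ampd1 (left) and Adss1 (right) on the y axis against the summed intensity of 9 fast fibre genes on the x axis, 1 point per capture, with circles for title prefix R2 and triangles for R3. Orbital captures lie at sums of 32980 to 48690 and global captures at 57464 to 98434, and both members are lower in every orbital capture.

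The members were then compared between the title prefixes, a contrast that did not enter their choice. With layer as a term, the captures with prefix R3 were higher than those with R2 by a log2 difference of 0.33 ± 0.13 for Adss1 and 0.38 ± 0.16 for Ampd3 (SE, limma), with unadjusted p of 0.0210 and 0.0327 and adjusted p of 0.634 and 0.672. Neither passed. For Adss1 the prefix difference was 0.31 among the orbital and 0.35 among the global captures, and for Ampd3 it was 0.48 among the orbital and 0.29 among the global captures. Ampd1, the brighter Ampd2 probe set, the brighter Adss2 probe set and Adsl differed by 0.15, -0.07, -0.0003 and 0.06. Of the 6 tested member probe sets 0 passed and 2 had an unadjusted p under 0.05. Over all tested probe sets 0.0105% (1 probe set) passed and 681 had an unadjusted p under 0.05. The summed intensity of the hybridisation controls was 38204 to 47742 on the R2 arrays and 55339 to 74326 on the R3 arrays, and its part in these values was not tested.

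The layer difference itself was set between the prefixes by an interaction term in limma. It was -0.09 ± 0.34 (SE) for Ampd1 and -0.04 ± 0.27 for Adss1, so that the difference between prefixes was small beside its error. The widest was that of the brighter Ampd2 probe set, at 0.65 ± 0.33 with an unadjusted p of 0.0784 and an adjusted p of 0.9999. None of the 6 tested member probe sets passed (0), and 0 had an unadjusted p under 0.05. Over all tested probe sets 0% passed, and 290 had an unadjusted p under 0.05.

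The genes most like each member in pattern were ranked by Pearson correlation of log2 values over the 8 captures, which share the layer difference. For Ampd1 they were Bhlhe41, a transcription factor of the circadian clock (r = 0.994), Cd55, a complement regulator (0.991), and Mybpc2, the fast myosin binding protein C (0.982). For Adss1 they were Pkia, an inhibitor of protein kinase A (0.986), Pgm1, phosphoglucomutase (0.981), and Rab2a (0.979). For Ampd2 they were Ube4a (0.964), Ist1 (0.948) and PCOLCE2 (0.948), and for Ampd3 they were Uqcc1 (0.950), Naca (0.947) and Dync1i1 (0.936). For Adss2 they were Ccdc50 (0.963), Ccdc126 (0.956) and Srprb (0.955), and for Adsl they were Cc2d1b (0.970), Actr10 (0.968) and Pkn2 (0.935). With the layer means taken out, the nearest to Ampd1 were Asph (0.979), Vamp1 (0.945) and Aco1 (0.944), and to Adss1 Nop53 (0.989), Sowaha (0.962) and Klf4 (0.961). On the same measure Dhx15 (0.946), Ube4a (0.943) and Gtf3c3 (0.936) were nearest to Ampd2, and Plekhj1 (0.959), Uqcc1 (0.948) and Nap1l5 (0.947) to Ampd3. Lap3 (0.966), Efcab2 (0.965) and Slc1a1 (0.959) were nearest to Adss2, and Gclc (0.982), Nthl1 (0.975) and Fgfrl1 (0.971) to Adsl. Ampd1 and Adss1 correlated at 0.94 over the 8 captures and at 0.56 with the layer means taken out. These values rest on 8 captures and a search over all tested genes, and are descriptions.

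Around the cycle, 95 genes of connected pathways were listed, of which 72 were on the array and 59 were tested, each by its brightest probe set. With limma and an adjusted p under 0.05, 4 were higher in the orbital layer, 2 were lower and 53 did not pass, with a median log2 difference of 0.08. Over all 7163 tested genes 7.68% were called, 293 as higher and 257 as lower in the orbital layer. At an unadjusted p under 0.05 in limma there were 21 of the 59 related genes and 2056 of the 9520 tested probe sets. Nothing is read from these counts.

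Genes that make purines or turn IMP into guanine nucleotides gave 2 that were higher. Of 6 tested genes of purine synthesis 1 rose and 0 fell, with a median of -0.12. That was Prps2, which makes the ribose donor phosphoribosyl pyrophosphate, with 134, 170, 107 and 98.5 in orbital captures 1 to 4, against 65.4, 91.3, 38.8 and 58.7 in global captures 1 to 4 (1.02 ± 0.26, SE, adjusted p = 0.0278). Its layers did not overlap, but a second probe set, at 0.46, did not pass. The call of Prps2 did not hold on leaving out orbital capture 1 or 2 or global capture 1, 3 or 4 (adjusted p 0.0539 to 0.0853). Prps1 had 588 ± 35.6 in orbital and 719 ± 11.8 in global captures (SD, n = 4 each), a log2 difference of -0.29 with an adjusted p of 0.135 in limma, and layers that did not overlap. Atic, which catalyses the last steps to IMP, differed by -0.26, Gart by -0.22 and Prpsap1 by 0.14, none of them passing. Guk1, guanylate kinase, was 1 of 2 tested genes from IMP to guanine nucleotides that rose, with 443, 389, 455 and 456 in orbital captures 1 to 4, against 266, 258, 265 and 369 in global captures 1 to 4 (0.60 ± 0.14, adjusted p = 0.0205). The other, Gmpr2, differed by 0.10 without passing. The call of Guk1 did not hold in fits that omitted orbital capture 1, 3 or 4 or global capture 1 or 3 (adjusted p 0.0519 to 0.0637).

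Salvage, breakdown and transport of purines gave no call (0) by limma. Of 15 tested salvage and breakdown genes 0 rose and 0 fell, with a median of 0.18. Of the 15, 5 had an unadjusted p under 0.05, as had 2056 of all 9520 tested probe sets. Aprt, adenine phosphoribosyltransferase, had 747 ± 38.7 in orbital and 584 ± 72.9 in global captures (SD, n = 4 each), 0.36 on the log2 scale. Hprt1, which salvages IMP and GMP from free bases, differed by 0.40, Gda, guanine deaminase, by 0.52 and Adk, adenosine kinase, by -0.55. A second Gda probe set differed by only 0.11 (adjusted p = 0.865 in limma). The adjusted p of the brightest probe sets were 0.103, 0.148, 0.140 and 0.169, and their unadjusted p 0.0119, 0.0222, 0.0204 and 0.0275, in the order Aprt, Hprt1, Gda and Adk. Without global capture 3, Adk was called lower in the orbital layer (-0.75, adjusted p = 0.0477). Of 9 adenosine receptors, nucleoside carriers and ectonucleotidases 0 rose and 0 fell, with a median of 0.05, 0 at an unadjusted p under 0.05, and Slc28a2, Slc29a1, Slc29a3 and Slc29a2 at 0.44, 0.34, 0.39 and 0.21. A second Slc29a2 probe set had the opposite sign, at -0.19, and also did not pass.

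Both related genes called lower belonged to the kinase that senses AMP, the substrate of AMP deaminase, and neither call held in every alternative fit. Of the subunits of AMP-activated protein kinase, 5 in the test, 2 fell and 0 rose, with a median of -0.88. Prkag2, a regulatory gamma subunit that binds AMP, had 42.9, 54.1, 29.6 and 47.2 in orbital captures 1 to 4, against 85.8, 103, 139 and 66.9 in global captures 1 to 4 (-1.15 ± 0.26, adjusted p = 0.0169). The layers did not overlap, and the call was lost without global capture 3 (adjusted p = 0.0606). The orbital values of Prkag2 lay near the filter intensity of 39.4. Its difference was -0.58 with a pseudocount of 64, still called, and it was not tested with the filter at the 60th percentile. Prkaa2, the catalytic subunit that is abundant in muscle, had 255, 137, 166 and 164 in orbital captures 1 to 4, against 323, 212, 415 and 384 in global captures 1 to 4 (-0.88 ± 0.23, adjusted p = 0.0312). Its layers overlapped, since orbital capture 1 exceeded global capture 2. Its call did not hold when orbital capture 2, 3 or 4 or global capture 1, 3 or 4 was omitted (adjusted p 0.0699 to 0.0965). The call of Prkaa2 was also lost in limma with no filter (adjusted p = 0.0532), without trend (0.0657) and with orbital captures 3 and 4 averaged (0.0745). With orbital captures 1 and 2 alone neither passed (adjusted p 0.123 for Prkag2 and 0.221 for Prkaa2). Prkab1 differed by -0.88 ± 0.39 (SE), Prkag1 by 0.21 and Prkaa1 by -0.03, none of them passing. The value of Prkab1 is also the median of the list. It rested on orbital captures 1 and 3, at 36.6 and 34.9, under the filter intensity of 39.4. Orbital captures 2 and 4, at 106 and 127, lay within the global range of 83.1 to 176.

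**Figure D4:**
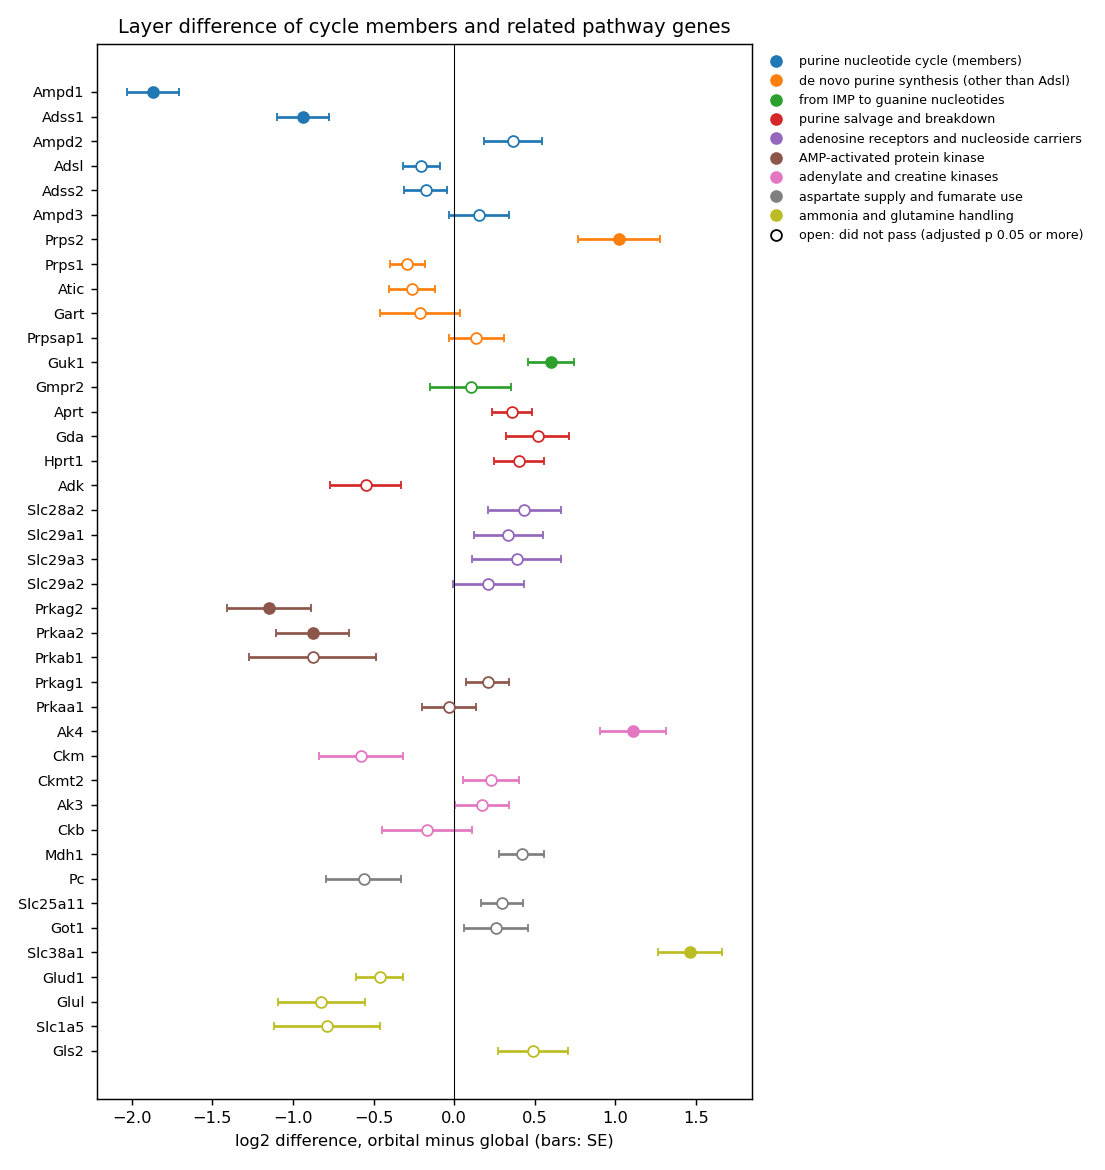
Log2 difference between the orbital and the global layer (x axis, bars are the SE) of the 6 cycle genes and 34 related genes, coloured by list, with filled points for an adjusted p under 0.05 and open points for others. The cycle genes are shown as a description, with Ampd1 at -1.87 and Adss1 at -0.94, and the largest positive value among the related genes is that of Slc38a1 at 1.46.

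Among adenylate and creatine kinases, which share AMP, ADP and ATP with the cycle, 1 rose and 0 fell, with 4 of the 5 tested short of the threshold. Ak4, a mitochondrial adenylate kinase, had 676, 373, 719 and 654 in orbital captures 1 to 4, against 295, 338, 225 and 241 in global captures 1 to 4 (1.11 ± 0.20, adjusted p = 0.00451). Orbital capture 2 was close to the global captures, though no values overlapped, and the call was lost with orbital captures 1 and 2 alone (adjusted p = 0.0907). Ckm, the creatine kinase of muscle, differed by -0.58 and Ckmt2, its mitochondrial counterpart, by 0.23, with adjusted p of 0.215 and 0.488 in limma. Ak3, an adenylate kinase of the mitochondrial matrix, differed by 0.17 and Ckb, the creatine kinase of brain, by -0.17, neither of them passing.

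The products and the nitrogen donor of the cycle connect it to aspartate, fumarate and ammonia. Of 8 tested genes of aspartate supply and fumarate use 0 rose and 0 fell by their brightest probe sets in limma, with a median of 0.12. At an unadjusted p under 0.05 there were 3 of the 8, beside 2056 of all 9520 tested probe sets. Mdh1, cytosolic malate dehydrogenase, had 8561 ± 1293 in orbital and 6356 ± 274 in global captures (SD, n = 4 each), a log2 difference of 0.42 with an adjusted p of 0.0957 in limma, and a second Mdh1 probe set differed by 0.77 and passed (0.0300). With quantile normalization the brightest Mdh1 probe set passed as well (0.45, adjusted p = 0.0143 in limma). Pc, pyruvate carboxylase, differed by -0.56, Slc25a11, the carrier of oxoglutarate and malate, by 0.30 and Got1, cytosolic aspartate aminotransferase, by 0.26, none of them passing. Of 9 genes of ammonia and glutamine handling 1 rose and 0 fell, with a median of 0.003. Slc38a1, a carrier of glutamine, had 1229, 646, 960 and 898 in orbital captures 1 to 4, against 371, 383, 352 and 236 in global captures 1 to 4 (1.46 ± 0.20, adjusted p = 0.000659). The layers did not overlap, and a second probe set differed by 0.81 with an adjusted p of 0.0520 in limma. Glul, glutamine synthetase, which binds free ammonia, had 1330, 1267, 1559 and 1746 in orbital captures 1 to 4, against 2862, 1426, 4634 and 2392 in global captures 1 to 4. Its brightest probe set differed by -0.82 ± 0.27 without passing (adjusted p = 0.0887) and its second by -1.32 with an adjusted p of 0.00339, so the probe sets of Glul disagreed on the call but not on the direction. Without global capture 2 the brightest Glul probe set was called as well (-1.11, adjusted p = 0.00662 in limma). Glud1, glutamate dehydrogenase, differed by -0.46 at its brightest probe set and by -0.001 at another, Slc1a5 by -0.79 and Gls2 by 0.49, none of them passing. The value of Slc1a5 rested largely on orbital capture 1, at 39.5 against 103 to 147 in the other orbital captures, and was -0.38 without it.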

How the data were processed

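RNA of laser-dissected captures underwent T7-based amplification and was measured on 1-colour Affymetrix RAE230A arrays, per the labels. The deposited table gives 1 linear intensity per probe set and array. The software behind these values is not given in the sources used here. The trimmed means (2%) agreed to within 0.00389% over the arrays, so the deposited intensity values were already scaled, and no further normalization was applied. Scaling makes every level relative to its array.

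Layers were taken from the source names, and captures were numbered in accession order, which pairs nothing. After removal of 57 controls, 9520 of 15866 probe sets entered the test, those with a mean log2 value at or above the 40th percentile. The test was limma 3.58.1 (R 4.3.3), lmFit and eBayes with intensity trend, on log2(intensity + 1), with a term for layer and no other, two-sided, with Benjamini-Hochberg adjustment over all tested probe sets and a threshold of 0.05. Differences are on that scale. Gene names came from the array's annotation, with 12783 probe sets having 1 symbol, 312 several and 2771 none, and 12748 were found in a current gene table with 0 symbols changed. Each listed gene was represented by its brightest probe set among those tested. The procedure was tested on simulated data.

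The members and lists were chosen with earlier results of these data known. Related genes named are those that passed and up to 4 more per list with the smallest p, and likeness names the 3 highest correlations of each member. Second probe sets of Mdh1, Glul, Glud1, Slc38a1, Prps2, Gda and Slc29a2 were added after their values were seen, as was the contrast between the title prefixes R2 and R3. Alternatives were quantile normalization, pseudocounts of 16 and 64, no filter and the 60th percentile, eBayes without trend and robust, the prefix as a block, orbital captures 3 and 4 (nearly the same title) averaged, each prefix alone, each capture left out, and averaging the probe sets of each gene. Orbital captures 1 and 2 alone were added after seeing the data.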

Additional observations from a re-analysis of the deposited data

Results flagged for a closer look

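Among the 16 sets of 4 captures formed by the 8 member probe sets and the 2 layers, 2 held a capture far from the other 3, where about 1 in 20 sets would by chance. The brighter Ampd2 probe set had an intensity of 210.8 in orbital capture 3, with a gap to the nearest orbital capture of 0.911 of the whole range, and without that capture its log2 difference was 0.23 in place of 0.37. Adss1 had 5826 in global capture 3, with a gap of 0.836 of the range, and without that capture its log2 difference was -0.80 in place of -0.94.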

How the results depend on the processing

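The 2 member probe sets called lower in the orbital layer, Ampd1 and Adss1, numbered 2 under every alternative run other than prefix R3 alone, where 1 was called. Over all 20 alternatives the difference of Ampd1 was between -1.98 and -1.73 and that of Adss1 between -1.10 and -0.80. With the title prefix as a replicate block 2 were called, and the block changed no call of a member. Members called higher numbered 0 in every alternative run. Of 120 single values for the 6 tested members 118 kept direction and call, 1 lost its call (Adss1 in prefix R3 alone, adjusted p = 0.0649), and Ampd3 turned to -0.086 with orbital captures 1 and 2 alone.

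Related pathway genes called lower numbered 1 with no filter, the 60th percentile, no trend, orbital captures 3 and 4 averaged or prefix R3 alone, 0 with prefix R2 alone or with orbital captures 1 and 2 alone, 1 to 3 on leaving out 1 capture, and 3 on averaging the probe sets of each gene, against 2 as reported. Those called higher numbered 0 in prefix R2, 2 in prefix R3, 2 with orbital captures 1 and 2 alone, 2 to 4 on leaving out 1 capture, 5 with quantile normalization, 3 with no filter, the 60th percentile or no trend, and 4 on averaging the probe sets of each gene, against 4 as reported. All tested probe sets called numbered 106 in prefix R2, 170 in prefix R3, 363 with orbital captures 1 and 2 alone, and 461 (without global capture 3) to 725 on leaving out 1 capture. Fits of 1 prefix hold only 2 captures a layer. The brightest tested probe set of a gene was picked anew in each alternative. Some values therefore belong to another probe set than the one reported, such as that of Gda in prefix R3 (0.19). Of 670 single values for 34 related genes 616 kept direction and call, 35 lost it, 3 gained it and 16 turned, all 16 from values that had not passed. The 3 gained were Adk without global capture 3 (-0.75, adjusted p = 0.0477), Mdh1 with quantile normalization (adjusted p = 0.0143) and Glul without global capture 2 (adjusted p = 0.00662). Gart turned to 0.053 in prefix R2 and 0.19 with orbital captures 1 and 2 alone, and Slc29a2 to -0.030 with those captures. Gmpr2 turned to -0.027 in prefix R2, and over single captures left out it was -0.11 to 0.25, below 0 without orbital capture 3 or global capture 3. Prkaa1 turned to 0.014 with orbital captures 3 and 4 averaged, 0.091 in prefix R3 and 0.11 with orbital captures 1 and 2 alone, and over single captures left out it was -0.15 to 0.070, above 0 without orbital capture 3 or 4 or global capture 1 or 2. Ckb turned to 0.36 in prefix R3 and was -0.32 to 0.071 over single captures left out, above 0 without orbital capture 2, and Got1 to -0.017 in prefix R3. The cause of these changes was not tested. Signal near the Bacillus controls limits the second probe sets of Ampd2 and Adss2.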
